A study of Mus musculus with 2 samples.

Results

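CpG-rich promoters were examined in WGBS data from primary calvarial osteoblasts of a WT library and a TCKO library. The set held 8554 of the 20807 protein-coding genes on autosomes (GENCODE M21, mouse build GRCm38), or 41.1%. A gene was a member when at least 80 CG rows lay within 500 bp of its gene-level TSS, where a row is a cytosine of a CpG on 1 strand with a call in either library, so that each CpG gives up to 2 rows. The WT mice were wild type and the TCKO mice carried Prx1-Cre with Tet1 fl/fl, Tet2 fl/fl and Tet3 fl/fl alleles, both on the C57BL/6 strain and 3 days old. Prx1-Cre is driven by a limb and skull mesenchyme promoter, so cells of other origin in a calvarial culture would keep their Tet genes, and recombination of the 3 genes was not re-examined here. Each genotype had 1 library, so there is no replicate check and each test compares the libraries, not the genotypes.

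Most mammalian CpGs are methylated, and cytosine methylation of a promoter goes with a silent gene. CpG islands, where the dinucleotide is dense and left unmethylated, mark the promoters of most housekeeping and many developmental genes, and the less dense flanks on either side are called shores. TET enzymes oxidise 5mC to 5hmC and further, a step toward demethylation, and they carry or partner with CXXC domains that bind unmethylated CpGs. Bisulfite sequencing reads 5mC and 5hmC alike as methylated, so a level here is the sum of both.

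The rule selects for CpG density, and the sequences reflect it. Their median GC content within 500 bp of the TSS was 61.5% against 49.6% for the other promoters, and their median ratio of observed to expected CpGs was 0.794 against 0.265. The median member had 109 CG rows, with quartiles at 94 and 130 and a highest value of 295. At the threshold, 125 genes had 80 rows and 126 had 79. The 706 genes with 80 to 84 rows had a pooled level within 500 bp of 8.04% in WT and 10.1% in TCKO, and the 714 genes with 75 to 79 rows had 11.6% and 14.4%. The rule depends on coverage, since 10887 promoters have 80 such cytosines in the reference and 2333 of them fell short for want of calls.

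Stretches of 3 promoters are shown to make the contrast concrete, written 5′ to 3′ on the gene's strand with each CpG in capitals. They are the 200 bp before the TSS of a member with a called gain at the centre (Mtx2, chr2:74825603-74825802, plus strand), of the member with the largest called gain outside it (Adamts14, chr10:61273439-61273638, minus strand) and of a member among those with the most CG rows (Irf2bp2, chr8:126593987-126594186, minus strand), all in GRCm38 and outside any annotated gene.
Mtx2: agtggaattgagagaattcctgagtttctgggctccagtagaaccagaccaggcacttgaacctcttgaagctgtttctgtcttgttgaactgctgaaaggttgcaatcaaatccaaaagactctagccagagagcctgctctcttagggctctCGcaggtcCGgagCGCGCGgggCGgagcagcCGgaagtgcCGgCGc
Adamts14: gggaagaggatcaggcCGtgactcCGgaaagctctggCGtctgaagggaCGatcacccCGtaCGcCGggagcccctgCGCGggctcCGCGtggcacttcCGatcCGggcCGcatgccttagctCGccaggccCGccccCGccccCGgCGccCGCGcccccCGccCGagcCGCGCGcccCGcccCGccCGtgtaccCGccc
Irf2bp2: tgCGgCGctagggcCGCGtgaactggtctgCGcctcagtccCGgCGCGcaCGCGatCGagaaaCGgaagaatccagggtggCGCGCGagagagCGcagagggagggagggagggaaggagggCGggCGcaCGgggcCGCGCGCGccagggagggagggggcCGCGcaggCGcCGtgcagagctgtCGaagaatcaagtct
The stretch of Adamts14 held 30 CpGs and that of Irf2bp2 28, spread over the whole 200 bp. That of Mtx2 held 9, all in its end next to the TSS. For comparison, a 200 bp window of the upstream shore of Adamts14, at -800 to -601 bp (chr10:61274039-61274238, minus strand, outside any annotated gene), held 2 CpGs. It was picked as the window with the largest increase in the shore of this gene, so it is an extreme and not a typical shore.
Adamts14 shore: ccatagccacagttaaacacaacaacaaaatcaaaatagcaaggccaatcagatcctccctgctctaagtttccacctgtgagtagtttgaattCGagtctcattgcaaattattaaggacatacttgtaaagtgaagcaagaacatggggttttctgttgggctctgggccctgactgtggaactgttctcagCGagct
In this window the level was 11.8% of 17 calls in WT (95% Wilson interval 3.29 to 34.3%) and 77.8% of 18 calls in TCKO (54.8 to 91.0%), while the 500 bp on either side of the TSS stood at 3.92% and 4.60%.

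Short promoter motifs were counted in the 250 bp before the TSS, on both strands. The Sp1-type GC box GGGCGG was in 66.1% of members and 39.6% of all promoters, and the ETS site CCGGAAG in 14.0% and 8.21%. The NRF1-type site GCGCATGC was in 5.04% and 2.77%, and it holds no other motif of this set. The CCAAT box was in 35.8% of members and 35.5% of all promoters, and the TATA box TATAAA in 5.07% and 11.6%. Motifs with CpGs in them were thus more frequent in the members and TATAAA less frequent, as counts of letters without any measure of binding. The rule picks CpG-dense sequence that includes these 250 bp, so such a shift is built in and is no separate finding. Among the members, GGGCGG was in 52.3% of the 331 with a called gain within 500 bp in 69.1% of the 2621 with a called gain in the shore only, and in 65.7% of the 5432 tested in both zones with no call. The members with a core gain also had fewer CG rows, with a median of 100 against 109 in those with no call, and a lower median GC content, 58.4% against 61.4%.

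A level is the share of calls that read as methylated, summed over the cytosines of a zone or window. The WT library held 261127589 calls over the nuclear CGs and the TCKO library 223645082, and over the autosomes TCKO was at 76.6% and WT at 70.4%, a gap of 6.23 percentage points. Depth fell toward the TSS of the members, from 5.54 calls per row in WT and 4.63 in TCKO at 2000 to 5000 bp to 1.75 and 1.44 within 500 bp. A median member had 183 calls in WT and 151 in TCKO within 500 bp, and 447 and 369 calls from 500 to 2000 bp. The intervals below are 95% intervals that cover counting error alone, since calls on 1 read are not independent and duplicate removal is not stated.

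A pair of members stood apart before any comparison. Tmem267 and 3110070M22Rik on chromosome 13, which lie on opposite strands with overlapping 5′ ends, had 914 and 1072 calls within 500 bp in WT, at 86.1% and 85%. In TCKO they had 17 and 2 calls. Neither could be tested within 500 bp, yet in pooled sums the calls of the WT library count. Results near the TSS are therefore given with and without this pair, an exclusion chosen after the values were seen. From 500 to 2000 bp they had 709 and 571 calls in WT, at 74.6% and 75.7%. In TCKO they had 174 and 157 there, at 62.1% and 61.8%, so both were tested in that zone. Of the members, 1785 shared cytosines within 500 bp with another member, so members are not independent of each other.

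The label of the culture was compared with markers. Of 14 osteoblast marker genes, 4 were members (Alpl, Dlx5, Msx2 and Twist1), and the WT level within 500 bp ranged from 0 to 76.5% over the 14, with Prrx1 and Twist1 at 0. The 8 haematopoietic markers lay between 47.3% and 85.2%, the 6 endothelial between 3.97% and 76.7%, the 5 chondrocyte between 0 and 40.8% with Acan and Sox9 at 0, and the 4 epithelial between 7.91% and 64.9%. These are promoter methylation levels and give no cell shares, and the part of other cell types in the differences was not tested.

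The promoter centres stayed almost free of methylation in TCKO and the shores gained. In the core, the 500 bp on either side of the TSS, the pooled level was 4.65% in WT and 5.94% in TCKO, a difference of 1.30 points (1.25 to 1.35). That gain was 3.19 points at cytosines with at least 4 calls in each library and 0.310 points within 250 bp. Depth in the core rose with distance from the TSS, so a minimum of 4 calls also changes which cytosines are pooled. In the shore, from 500 to 2000 bp, it was 40.7% and 47.8%, 7.17 points (7.09 to 7.24). In the outer flank, from 2000 to 5000 bp, it was 70.4% and 77.0%, 6.68 points (6.62 to 6.73). The shore thus rose by 5.87 points (5.78 to 5.96) more than the core, and by 0.489 points (0.401 to 0.578) more than the outer flank. The excess over the outer flank lay on the upstream side, at 7.01 against 5.97 points. Downstream the order was reversed, with 7.22 points in the shore and 7.37 in the outer flank. It was also reversed in members with 120 or more rows, at 7.27 and 7.36 points.

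**Figure D1:**
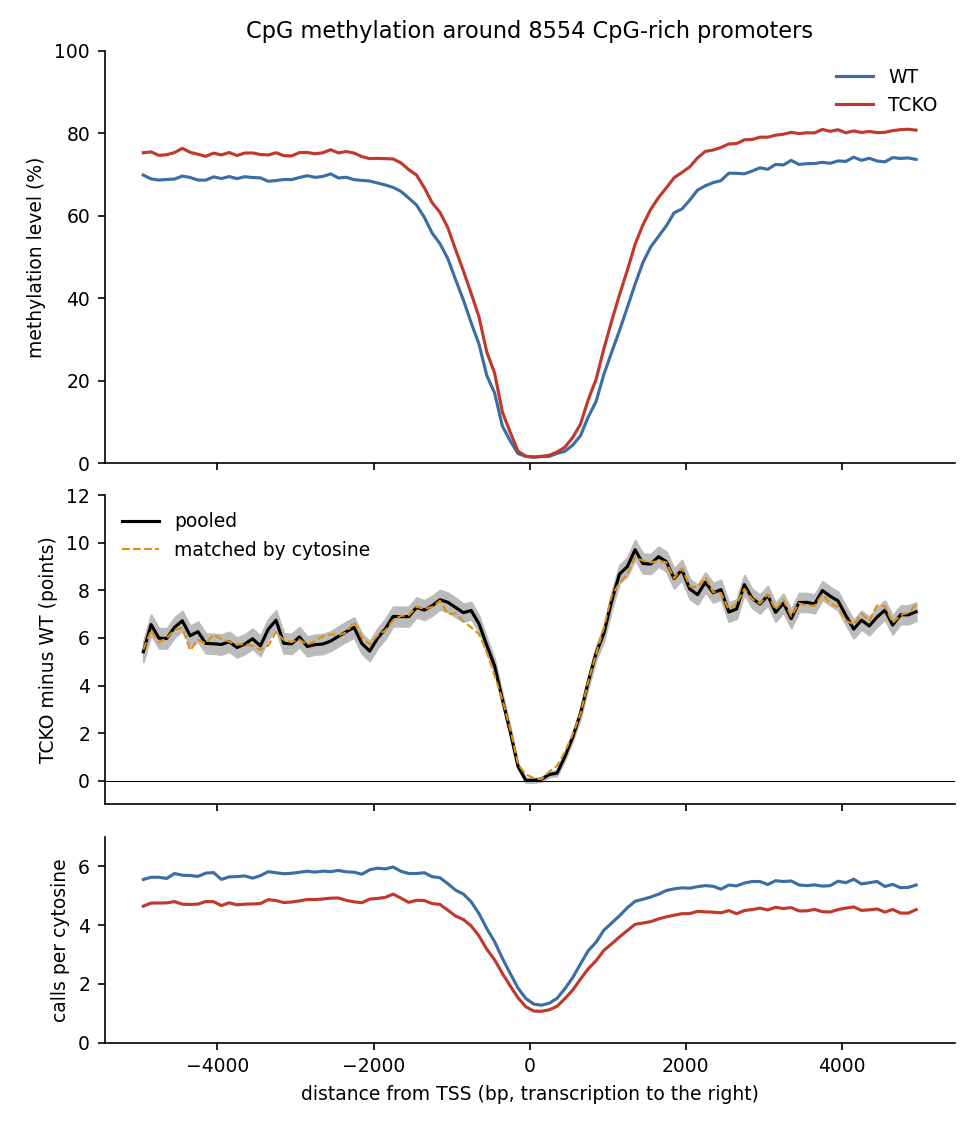
CpG methylation by distance from the TSS over the 8554 CpG-rich promoters, in 100 bp windows with transcription to the right. Top, pooled level in percent in WT and TCKO. Middle, TCKO minus WT in percentage points with its 95% counting interval in grey, and the same difference matched by cytosine as a dashed line. Bottom, calls per cytosine. Both libraries fall below 2% at the TSS, the difference falls to near 0 there and reaches 9.71 points at 1300 to 1399 bp downstream.

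As a share of the calls that were unmethylated in WT, the gain was 1.36% in the core, 12.1% in the shore and 22.5% in the outer flank, against 21% over all autosomes. On the ratio scale the order differed, with TCKO over WT at 1.28 in the core, 1.18 in the shore and 1.09 in the outer flank. A low level with a small gain and a high level with a large gain can therefore be ranked either way by the choice of scale.

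Because the calls of the libraries need not fall on the same cytosines, the difference was also matched by cytosine: at each cytosine called in both, the difference of the levels was taken and weighted by the product of the depths over their sum. Of the member rows, 44.5% in the core, 70.6% in the shore and 81% in the outer flank had a call in both libraries. The matched differences were 1.57 points in the core, 6.90 in the shore and 6.69 in the outer flank. Without the Tmem267 pair, the pooled core levels were 4.55% and 5.94%, a difference of 1.39 points. Cytosines read on the plus and minus strand differed in the gain by -0.04 points (-0.14 to 0.06) in the core and 0.01 points (-0.13 to 0.16) in the shore.

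In the profile of 100 bp windows, the gain grew with distance from the TSS out to a peak in the shore on each side and was smaller beyond it. In the first 100 bp downstream the level was 1.42% in WT, the lowest of all windows, and 1.44% in TCKO. From 100 bp upstream to 200 bp downstream, the intervals of 3 windows included 0, and the other 97 of the profile lay above 0. Without the Tmem267 pair, 1 window, the second downstream, included 0. All 100 windows had a matched difference above 0, the smallest 0.06 points. Upstream, the difference reached 7.60 points (7.20 to 8.01) at -1200 to -1101 bp, where the level rose from 53.2% to 60.8%. Downstream it reached 9.71 points (9.31 to 10.1) at 1300 to 1399 bp, from 43.4% to 53.1%. The largest ratios lay closer in, 1.38 at -400 to -301 bp (8.95% to 12.4%) and 1.43 from 600 to 699 bp downstream (6.59% to 9.42%). Without the Tmem267 pair the largest downstream ratio was 1.45, from 400 to 499 bp (2.64% to 3.83%).

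The unmethylated trough was not symmetric around the TSS and, measured at fixed levels, it was narrower in TCKO on both sides. The upstream shore stood at 49.4% in WT and 56.4% in TCKO, and the downstream shore at 32.6% and 39.9%, so the trough reached farther into the gene. The pooled profile first crossed 40% at 859 bp upstream in WT and 729 bp in TCKO, a shift of -130 bp (-137 to -123). Downstream, it crossed at 1291 bp in WT and 1137 bp in TCKO, a shift of -153 bp (-160 to -147). At a boundary of 20% the shifts were -90.4 bp upstream and -82.9 bp downstream, and at 50% they were -145 and -185 bp. A rise in level moves such a crossing inward by itself, so the shifts are no finding separate from the shore gain. Promoters with 40 to 79 rows also shifted at 40%, by -73.8 bp upstream and -124 bp downstream. The upstream shore gained 7.01 points and the downstream shore 7.22, and their difference of 0.216 points (0.0738 to 0.358) had the same sign in 10 of 19 autosomes. The upstream minus downstream difference was -0.216 points in all, -0.381 matched by cytosine and -0.964 at cytosines with at least 4 calls in each library. Farther out, the downstream outer flank gained 7.37 points and the upstream 5.97.

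Member by member, the edge of the trough was taken as the first 200 bp window outward from the TSS that was above 50% with at least 10 calls. Upstream, 8437 members had such a window in both libraries, with a median start at 1000 bp in WT and 800 bp in TCKO. It lay nearer to the TSS in TCKO in 2486 members (29.5%), at the same window in 5510 (65.3%) and farther in 441 (5.23%). Downstream, the medians were 1400 and 1200 bp, and of 8359 members 2934 (35.1%) had a nearer edge, 4964 (59.4%) the same and 461 (5.52%) a farther one. An edge nearer by 600 bp or more was found in 812 members upstream and 1181 downstream, and farther by as much in 110 and 122. Because the edge is set at a fixed level, these counts restate the shore gain. They were not taken over all promoters, so they show nothing particular to the members.

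The shore gained more than the core on each autosome, and more than the outer flank on 14 of 19. The shore gained on 19 of 19 autosomes, from 6.37 points on chromosome 15 to 8.49 on chromosome 3, and the outer flank from 5.42 to 7.66. The core gained on 18, up to 1.94 points on chromosome 7, with a median of 1.35. On chromosome 13 it was 7.54% in WT and 6.12% in TCKO, -1.41 points. Without the Tmem267 pair it was 5.58% and 6.12% there, 0.539 points (0.295 to 0.783). Within 250 bp of the TSS, chromosome 13 stayed lower in TCKO without the pair, at 2.91% and 2.63%, -0.284 points (-0.525 to -0.0429). Shore minus core was above 0 on all 19 autosomes, from 5.00 to 7.94 points. Autosomes of 1 library are not replicates of a genotype and their spread shows evenness along the genome only.

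**Figure D2:**
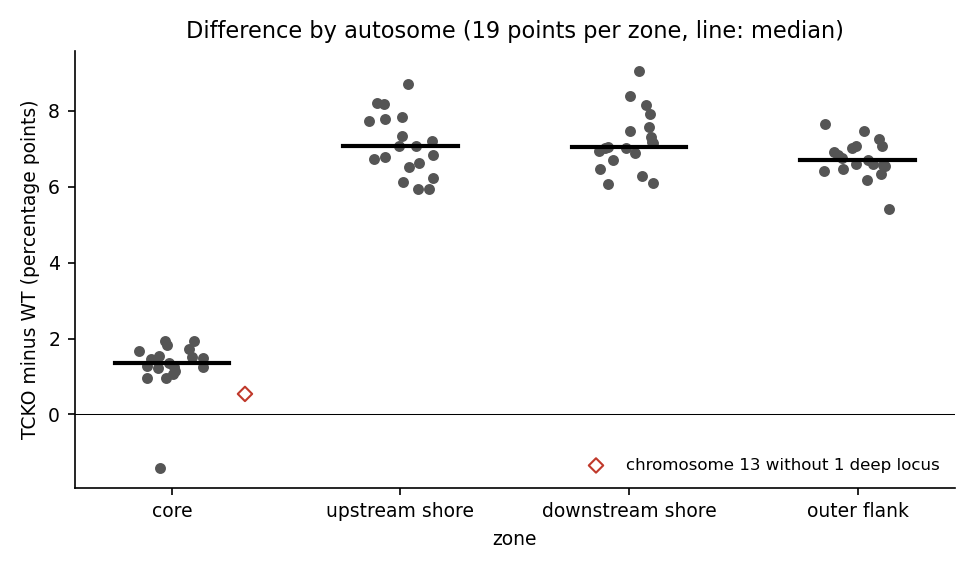
TCKO minus WT in percentage points by zone for the CpG-rich promoters of each autosome, 19 points per zone, with the median as a line. All shore and outer flank points lie between 5.42 and 9.06 points. The low core point is chromosome 13 at -1.41, and the open diamond is that chromosome without the Tmem267 pair, at 0.539.

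The density of CpGs around the TSS went with the depth of the trough. Members with 80 to 99 rows had a core level of 6.75% in WT and 8.70% in TCKO, those with 100 rows up to the next class 4.16% and 5.59%, and those with 120 or more 3.26% and 3.95%. Their core gains were 1.95, 1.43 and 0.685 points, while their shore gains were 6.91, 7.33 and 7.27. In the densest class, the 100 bp before the TSS had a difference of -0.53 points, which was 0.13 points (0.01 to 0.25) without the Tmem267 pair. The change in the centre was graded and did not start at the threshold: promoters with 40 to 79 rows also had a dip at the TSS, to 1.76 points from a largest value of 8.20, and genes with 75 to 79 rows gained 2.76 points in the core against 2.03 for 80 to 84 rows. Promoters with 40 to 79 rows with 40 to 79 rows rose in the core from 22.5% to 26.3%, and those with under 40 from 58.2% to 64.5%.

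**Figure D3:**
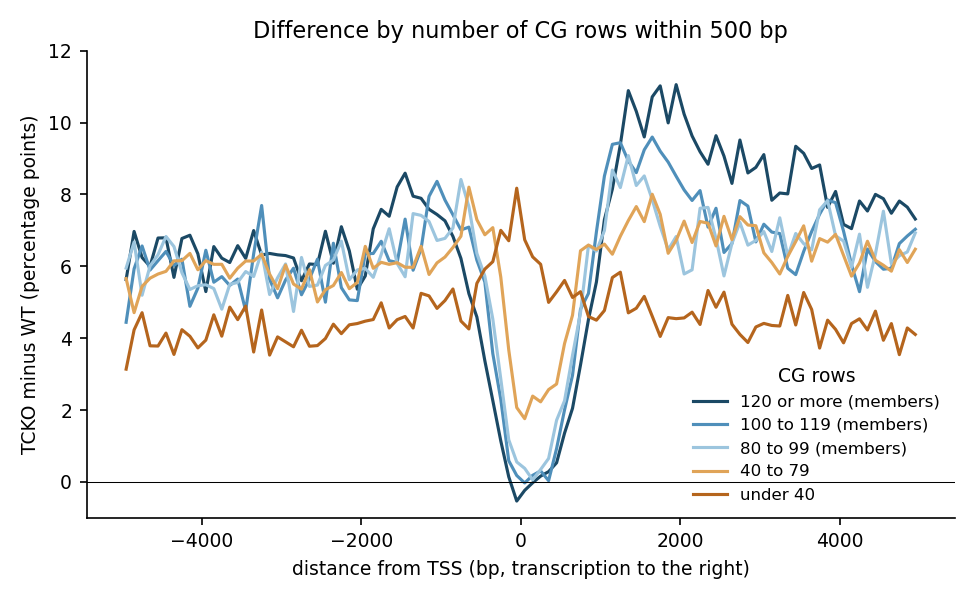
TCKO minus WT in percentage points by distance from the TSS in 100 bp windows, for classes of the number of CG rows within 500 bp of the TSS, the classes from 80 rows up being members. The member classes fall to near 0 at the TSS, promoters with 40 to 79 rows fall to 1.76 points and those with under 40 rows have their largest difference, 8.17 points, in the 100 bp before the TSS. The densest class dips to -0.53 points before the TSS, and is at 0.13 there without the Tmem267 pair.

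Against those classes the members gained fewer points in the core and more points outside it. Their core gain was smaller by 2.48 points (interval of the difference -2.63 to -2.33) than that of promoters with 40 to 79 rows and by 5.03 points (-5.21 to -4.86) than that of promoters with under 40. Their shore gain was larger by 0.593 points (0.466 to 0.720) and 2.29 points (2.18 to 2.41), and their outer flank gain by 0.496 points (0.407 to 0.586) and 2.40 points (2.32 to 2.49). As a share of the calls unmethylated in WT, the members had the smallest shore gain, 12.1% against 13.6% and 13.3%. Their outer flank gain was the largest on that scale too, 22.5% against 19.3% and 12.5%. Depth within 500 bp moved with these classes, with 1.75 calls per row in WT for members, 2.83 for 40 to 79 rows and 5.44 for under 40.

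To look at distance and CpG density together, 200 bp windows of the members were sorted on their own number of CG rows. With 16 or more rows, core windows went from 1.70% to 1.91%, shore windows from 8.83% to 10.3% and outer windows from 47.4% to 49.9%. With 4 to 7 rows, core windows went from 15.8% to 22.1%, a gain of 6.33 points (5.81 to 6.86), shore windows from 53.2% to 62.1%, 8.91 points (8.79 to 9.04), and outer windows from 72.4% to 79.5%, 7.14 points (7.07 to 7.22). Within a class of rows, the shore gained more than the outer flank in the classes up to 15 rows and less in the densest one. The densest class is open upward, so its windows need not be of like density across the zones. The sides of the core differed: with 4 to 7 rows, upstream core windows gained 6.77 points and upstream outer windows 6.29, while downstream core windows gained 3.19 and downstream outer windows 8.01. Of the core windows, 1915 had 4 to 7 rows and 25108 had 16 or more.

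**Figure D4:**
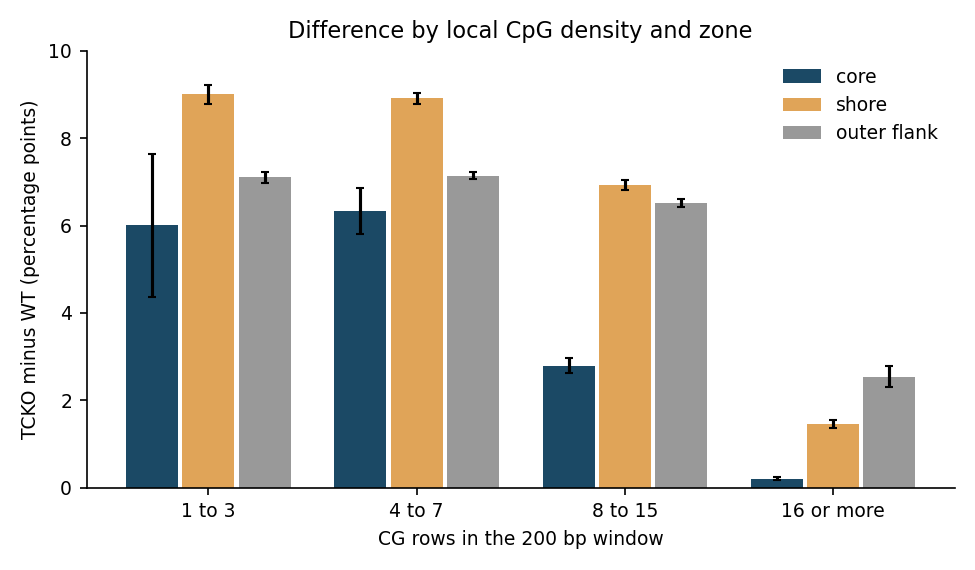
TCKO minus WT in percentage points of the 200 bp windows of CpG-rich promoters, by the number of CG rows in the window and by zone, with 95% counting intervals as error bars. In the shore the gain falls from 9.01 to 1.46 points across the classes. In the core it is 6.01 and 6.33 points in the sparsest classes and 0.210 in the densest, and in the outer flank 7.10, 7.14 and 2.55.

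Bidirectional promoters made up more of the members than of the other promoters. An opposite-strand TSS within 1000 bp upstream was present for 1168 members (13.7%) and 2.30% of the rest. These had a core of 1.72% in WT and 2.34% in TCKO, against 5.13% and 6.54% in the other members. Their trough was shifted upstream, crossing 40% at 1222 bp in WT and 1111 bp in TCKO on that side and at 1046 and 940 bp downstream. The other members crossed at 776 and 652 bp upstream and at 1324 and 1176 bp downstream. The shore gain was 7.13 points in the first and 7.18 in the second.

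Each member was next tested by itself with the 2-sided Fisher exact test on methylated and unmethylated calls, with Benjamini-Hochberg adjustment over all autosomal protein-coding genes with at least 20 calls in the zone in each library. A member was called at an adjusted p below 0.05 and a difference of at least 10 points. In the core, 331 of 8519 tested members (3.89%) were called higher in TCKO, against 7.91% of all tested promoters, and 66 (0.775%) were called lower, against 0.656%. In the shore, 2771 of 8554 (32.4%) were called higher, against 27.1% of all, and 89 (1.04%) lower, against 1.18%. The 89 included the Tmem267 pair, without which 87 were lower. The core share of gains lay below the background and the shore share above it, and losses lay near it. Promoters with 40 to 79 rows had 9.68% called higher in the core and 29.1% in the shore. Calls per gene and WT level bear on what can be called, and both differed between members and other promoters. The WT shore stood at 40.7% in members and 57.9% in the others. The part of these differences in the shares was not tested.

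The median member differed by 0.108 points in the core and 6.75 points in the shore, beside 0.921 and 5.60 over all tested promoters. Of the members tested in both zones, 2621 (30.8%) were called higher in the shore with no call of a gain in the core. A further 194 (2.28%) were called in the core without the shore and 137 (1.61%) in both. This split was not counted over all promoters, so it shows nothing particular to the members. The matching by cytosine bore unequally on the called gains and losses. Of the 331 core gains, 316 had a matched difference above 0 and 171 one of at least 10 points, and of the 2771 shore gains 2756 and 1701. Of the 66 core losses, 42 had a matched difference below 0 and 16 one of -10 points or less, and of the 89 shore losses 43 and 4. WT had fewer core calls than TCKO in 62.1% of the members with a core loss, against 32.0% of all tested members and 12.4% of those with a core gain.

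The members with the largest called core gains were led by Mtx2 (chromosome 2), of the mitochondrial import machinery, from 15.2% of 178 calls in WT to 84.8% of 33 calls in TCKO. Only 6 of its core cytosines were called in both libraries, with a matched difference of 14.1 points. E2f4 (chromosome 8), a repressive cell-cycle factor, went from 3.72% (interval 1.90 to 7.17%) of 215 calls to 48.2% (35.7 to 61.0%) of 56 calls, adjusted p = 1.45e-12 by Fisher's exact test, with a matched difference of 32.7 points over 12 cytosines. A4galt (chromosome 15), which makes the glycolipid Gb3, went from 3.8% of 158 calls to 41.9% of 93, and 34.6 points over 58 matched cytosines. Its gain lay upstream, with 15% in WT and 82.5% in TCKO at -600 to -401 bp, while the first 200 bp downstream stood at 5.88% of 17 calls in TCKO.

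The rest of the 10 were Zbtb4, a methyl-CpG binding factor, Grin3b, an NMDA receptor subunit, Calhm6, Acot5, Gmeb2, the arginyl transferase Ate1 and the germ-cell gene Tex14, with pooled gains of 32.6 to 39.7 points. Their matched differences were 43.5 points for Ate1, 35.5 for Grin3b, 29.9 for Zbtb4, 21.4 for Calhm6, 12.9 for Tex14, 4.74 for Gmeb2 and 4.06 for Acot5. In Gmeb2, the first 200 bp downstream had no methylated call of 27 in WT (Wilson upper bound 12.5%) and 66.9% of 127 calls in TCKO. Intervals of the core levels of these 10 members reached 13.3 points to a side.

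The largest shore gains with no core call were of another size. The shore of Adamts14 (chromosome 10), a protease that trims procollagen, went from 7.69% (4.35 to 13.2%) of 143 calls to 60.8% (52.2 to 68.7%) of 130, adjusted p = 1.73e-19 by Fisher's exact test, with a matched difference of 52.9 points. That of Pakap (chromosome 4), the paralemmin and A kinase anchor protein locus, went from 33.0% of 581 calls to 81.6% of 593, and 48.0 points matched. Its core was at 0 of 87 calls in WT, which allows up to 3.45% (3 over the number of calls), and at 0.709% of 141 in TCKO. In both genes the flank rose while the centre was not called.

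The shore of Ntn4 (chromosome 10), a laminin-binding netrin, went from 25% of 568 calls to 71.3% of 485. At -1800 to -1601 bp the level was 7.94% of 63 calls in WT and 92.7% of 41 in TCKO. The shore of Cyth3 (chromosome 5), an Arf exchange factor, went from 10.5% of 573 calls to 56.1% of 431. Its window at -1600 to -1401 bp stood at 6.10% and 86.7%, and its core at 3.85% and 10.7%, with an adjusted p of 0.138 in the Fisher exact test. The other 6 were Acat1, Mtss1l, Fads3, Rrbp1, Snx7 and Lhfp, with gains of 42.4 to 44.4 points. Matched differences of these 10 lay between 32.3 and 52.9 points with the exception of Rrbp1, which had 5.92 points over 6 cytosines and 41 shore calls in TCKO.

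The called losses were smaller or turned to gains under matching. In the core, Pcyt2 (chromosome 11), an enzyme of phosphatidylethanolamine synthesis, stood at 43.2% of 74 calls in WT and 11.6% of 146 in TCKO, and its matched difference was 0.169 points. Kdm3b, Fam49a, Itgb4 and Gnao1 had pooled differences of -31.6 to -28.0 points and matched ones of -5.38, 2.11, 30.3 and 2.67. In the shore, Atp5d (chromosome 10), a subunit of the ATP synthase, stood at 48.0% of 300 calls in WT and 22.9% of 249 in TCKO, and at -3.89 points matched. Anp32b, Mesd, Sgms1 and Dnlz had pooled differences of -22.6 to -20.6 points and matched ones of 5.67, 1.26, 5.12 and -0.42. None of these 10 thus kept a loss of 10 points at the cytosines that both libraries covered.

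The members with the most CG rows had centres with nearly no methylated call. The core of Irf2bp2 (277 rows), a transcriptional corepressor, had 0 of 252 calls in WT and 0 of 387 in TCKO, which allows up to 1.19% and 0.775%. That of Slc12a2 (295 rows), a sodium, potassium and chloride cotransporter, had 0 of 399 and 0 of 267, up to 0.752% and 1.12%, and that of Ranbp9 (256 rows) 0 of 242 and 0 of 240, up to 1.24% and 1.25%. Zcchc14 and Mmp24 lay between 0.239% and 2.46% in both libraries. Of these 5, the shore of Irf2bp2 was called higher, from 3.51% of 370 calls to 13.8% of 276, adjusted p = 2.53e-05 by the exact test.

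Not every CpG-rich centre was unmethylated. Of the tested members, 7413 (87.0%) had a WT core below 10%, 1045 (12.3%) between 10% and 50% and 61 (0.716%) above 50%. The first class went from 1.45% to 2.56% in the core and the second from 19.1% to 21.2%. The third went from 74.6% to 72.1%, a difference of -2.51 points (-3.38 to -1.64), with 2 members called higher and 9 lower. The classes were set on the WT level, so a shift toward the middle in the other library is built into these values. In the shore, set apart from the rule of the classes, the gains were 7.24, 6.55 and 4.12 points.

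The highest WT cores were 87.6% to 93.3%, with none of the 10 called in either direction. Of all tested members, 3.89% were called higher in the core and 0.775% lower. The 10 were picked on their WT level, which left little or no room for a gain of 10 points. The lack of called gains is thus no result about them. Among the 10 were the germ-cell genes Dazl, Btbd18 and Ankrd31, the testis tubulin gene Tuba3a and the retroposed ribosomal protein gene Rpl10l, the last of a family whose near-identical copies can compete for reads. The core of Dazl was 91.1% of 418 calls in WT and 84.4% of 270 in TCKO. Its shore went from 51.9% to 65.0%, and the shores of Tuba3a and Ankrd31 were also called higher, by 13.9 and 17.2 points.

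Osteoblast genes were described from a list of 41 autosomal genes, of which 19 were members. In the shore, 7 of the 19 were called higher and none lower, with a median of 7.83 points, beside 32.4% and 6.75 points over all members. The shore of Cbfb (chromosome 8), the partner subunit of RUNX2, went from 18.1% (15.3 to 21.3%) of 646 calls to 46.6% (42.0 to 51.3%) of 438, 21 points matched. That of Atf4 (chromosome 15), a factor of late osteoblast differentiation, went from 9.79% (7.22 to 13.2%) of 388 calls to 34.9% (30.0 to 40.1%) of 341, 26.1 points matched. Their cores had 0 of 121 and 0 of 93 methylated calls in WT, which allows up to 2.48% and 3.23%, and 0.943% and 0.578% in TCKO.

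Dlx5, Bmp2, Gli3, Smad1 and Lrp5 were the other called shores, with gains of 11.4 to 17.6 points. The transcription factor Dlx5 went from 21.4% to 39.0% and the ligand Bmp2 from 37.6% to 52.7%. The Wnt co-receptor Lrp5 had 47.0% and 58.4%, with an adjusted p of 0.0441 in the Fisher exact test and a matched difference of 7.03 points.

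In the core, 2 of the 19 were called higher and 1 lower, beside 3.89% and 0.775% of all members and 7.91% and 0.656% of all promoters. The BMP receptor gene Bmpr1a (chromosome 14) went from 2.69% (1.37 to 5.22%) of 297 calls to 20% (15.4 to 25.5%) of 240, 17.8 points matched. Smad5, which carries the BMP signal, went from 1.37% of 146 calls to 15.1% of 86, 17.0 points matched. The homeobox gene Msx2 stood at 30.9% of 136 calls in WT and 13% of 238 in TCKO, a called loss with a matched difference of 1.79 points over 29 cytosines.

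The remaining osteoblast members had no call. The core of Alpl, the tissue-nonspecific alkaline phosphatase, was 23.4% and 24.1% and its shore 72% and 81%, under the 10 points required. Twist1, Twist2, Gli2 and Fgfr2 had no methylated call in the core of either library, with limits from 1.20% for Gli2 in WT to 6.38% for Twist1 in TCKO. The shore of Twist1, an early repressor of osteoblast maturation, was 9.62% and 17.5%, and that of the fibroblast growth factor receptor gene Fgfr2 7.28% and 8.68%. The gene-level TSS of Fgfr2, at position 133123350 of chromosome 7, belongs to 1 annotated transcript that starts far upstream of the others, so these values are not those of its other promoters. Gli2, a Hedgehog effector, had 8.45% and 8.95%.

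Genes of the methylation machinery had 13 members of 27 on the list. None of the 12 tested was called in the core in either direction, beside 3.89% called higher and 0.775% lower of all tested members. At such shares, 12 genes are too few for the lack of calls to be a result about the list. The core of Gadd45a, a stress gene linked to demethylation, was 0.662% of 151 calls in WT and 8.41% of 107 in TCKO, with an adjusted p of 0.0240 in the Fisher exact test but under the 10 points required. In the shore, 3 of 13 were called higher and none lower, a share of 23.1% beside 32.4% of all members. They were Mbd3, a subunit of the NuRD complex, from 21.6% to 39.0%, the H3K4 methyltransferase gene Kmt2b from 48.5% to 63.6%, and Cxxc4, which encodes a CXXC domain and lies beside Tet2, from 26.8% to 40.5%. The shore of Tdg, the glycosylase that removes oxidised methylcytosine, was 46.2% and 52.4%. The core of Dnmt3b had 14 calls in TCKO and was not tested.

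Lists of other gene groups were described in the same way, beside 32.4% of all members called higher in the shore, 1.04% called lower and a median of 6.75 points. Of 155 developmental transcription factor members, taken by symbol from homeobox, Sox, Fox, Pax and like families, 15 (9.68%) were called higher in the shore and 5 lower, with a median of 0.774 points and a pooled shore of 16.2% in WT and 17.6% in TCKO. Of 63 ribosomal protein members, 16 (25.4%) were called higher, with a median of 6.94 points and a pooled shore of 44.0% and 51.2%. Of 48 histone members 11 (22.9%) were called higher, with a median of 4.38 points, though near-identical histone genes may share reads. Of 19 housekeeping members 4 were called higher, with a median of 5.72 points. None of the ribosomal protein, histone and housekeeping members was called lower in the shore.

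Within those lists, the largest shore differences were those of Pbx3, from 25.9% to 49.3%, and Sox8, from 44.1% to 65.1%, among developmental factors. Among ribosomal protein genes, Rplp1 went from 26.5% to 52.5% (9.89 points matched) and Rpl9 from 31.6% to 55.0% (13.2 matched). Polr2a, the largest subunit of RNA polymerase II, went from 24.7% to 45.2%, and Hist1h2bc from 15.3% to 33.0%. In Pbx3 the matched difference was 7.77 points, and in Pbx3, Rplp1 and Rpl9 it fell short of the pooled one by more than 10 points.

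Germline and imprinted genes differed from the rest in their cores. The 19 germline members had a pooled core of 61.4% in WT and 61.7% in TCKO and a shore of 69.1% and 76.5%, with 5 shores called higher (26.3%, beside 32.4% of all members). Mael, of the piRNA pathway, had a core of 86.8% and 86.2% and a shore that went from 51.6% to 76.0%, 23.8 points matched. The 13 imprinted members had a pooled core of 33.4% and 38.1%, with 5 shores called higher (38.5%). Their median shore difference was 4.76 points, beside 6.75 over all members, and their pooled shore was 54.1% in WT and 58.7% in TCKO. The core of Igf2r, a maternally expressed gene, was 26.4% and 26.7%, and its shore went from 59.9% to 77.2%. Of markers of other cells, only Col2a1, Sox9 and Cdh1 were members, with shore differences of -9.20, -2.34 and 6.79 points and no call.

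Windows with a gain of over 40 points were then sought, a size that the methods of the study set for differentially methylated regions. A 200 bp window was tested when it held at least 4 CG rows and a mean of 4 calls per row in each library, by Fisher's exact test with adjustment across windows around every autosomal protein-coding gene. Over those, 2.55% gained and 0.0242% lost more than 40 points. In the shore of the members 1023 of 32352 windows (3.16%) gained and 5 lost, in 845 members with a gain. In the core, away from its edge, 15 of 2233 (0.672%) gained and none lost. The share was 3.84% in the downstream shore and 2.53% upstream.

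The depth rule kept few core windows, 6.53% of them against 27% in the shore. With 10 calls in each library as the rule, chosen after the depth was seen, 74.0% of the core windows were tested, and 40 of 25323 (0.158%) gained and 6 lost. In the shore 2.42% gained under this rule, in the members as in the other promoters, whereas under the first rule the shares were 3.16% and 2.80%. By distance, the share under the first rule was highest from 1200 to 1399 bp downstream, where 123 of 2469 windows (4.98%) gained, and under the second from 1800 to 1999 bp downstream, where 165 of 4002 (4.12%) did. In the first 200 bp downstream, none of 144 windows gained under the first rule, and under the second 7 of 6098 gained and 5 lost.

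**Figure D5:**
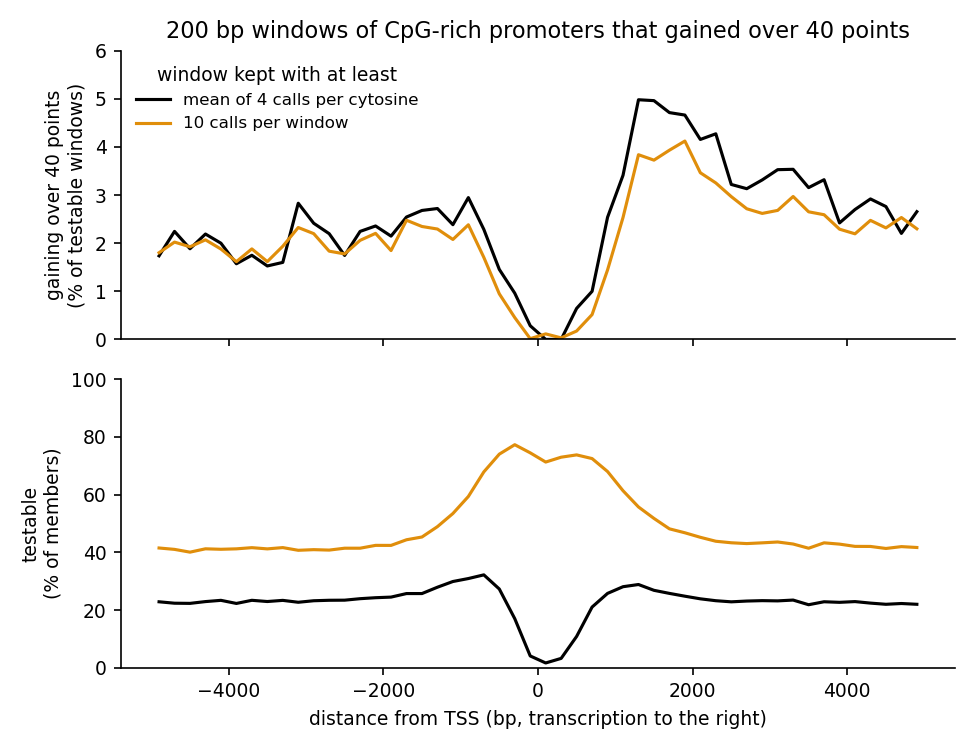
200 bp windows of the CpG-rich promoters by distance from the TSS. Top, windows that gained over 40 points as a percentage of those tested, under both rules on depth. Bottom, windows tested as a percentage of the 8554 members. Gains reach 4.98% of tested windows at 1200 to 1399 bp downstream, and under the stricter rule 1.68% of members have a testable window just downstream of the TSS.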

How the data were processed

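WGBS of cultured calvarial osteoblasts gave 1 WT and 1 TCKO library, grouped by their labels. The authors aligned reads to GRCm38 with BSMAP 2.74, kept unique hits, and deposited for each CG cytosine the counts of methylated calls and of all calls, without normalization. The role of CASAVA, duplicate removal and conversion rate are not given in the sources used here.

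The counts were pooled by distance from the gene-level TSS of GENCODE M21 (core 500 bp, shore to 2000 bp, outer flank to 5000 bp), and Wilson or normal 95% intervals were computed. They cover counting error only. For a core with no methylated call, the upper limit given is 3 over the number of calls. The bound for the Gmeb2 window is a Wilson bound. Members and 200 bp windows were compared by Fisher's exact test (2-sided), p-values were adjusted by the Benjamini-Hochberg method, and the code was tested on simulated data. With 1 library per genotype no spread between samples could be estimated.

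The members, gene lists and tests were chosen with earlier results of these data known. Genes named were the 10 largest core gains, the 10 largest shore gains without a core call, the 5 largest losses per zone, the 5 with most CG rows, the 10 highest WT cores, all osteoblast and methylation machinery members, and for other lists those with the largest shore differences. Alternatives changed the averaging, depth, CG row minimum, zones, boundary and call rules. Matching by cytosine, exclusion of the Tmem267 pair and the second depth rule for windows were added after the data were seen. Sequences came from GRCm38. Python 3.11.15, numpy 2.4.6, scipy 1.17.1, pandas 2.3.3, numba 0.67.0 and matplotlib 3.10.9 were used.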

Additional observations from a re-analysis of the deposited data

How the results depend on the processing

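The sums and counts over all members kept their direction. Within them, directions turned: without the Tmem267 pair the chromosome 13 core went from -1.41 to 0.539 points and the 100 bp before the TSS of the densest class from -0.53 to 0.13, and matching left 42 of 66 core losses and 43 of 89 shore losses below 0, with a median of 0.10 points over the shore losses. Within 250 bp of the TSS, chromosome 13 did not turn without the pair, at -0.284 points. The excess of the shore over the outer flank turned with 120 rows, at 7.27 and 7.36 points. It was also reversed on the downstream side of all members, at 7.22 and 7.37 points. The cores of Itgb4 (-29.3 to 30.3) and Msx2 (-17.9 to 1.79) turned. Of the recomputed values, 38 stayed within counting error or within 1.5 times a count. The others follow, with the cause of each shift not tested. The core gain of 1.30 points was 3.19 at cytosines with at least 4 calls in each library, 1.55 without cytosines near another TSS, 1.60 with 60 CG rows as the minimum, 0.685 with 120, 1.54 with 80 cytosines in the reference, 0.310 within 250 bp, 1.57 matched by cytosine and 1.39 without the Tmem267 pair. The shore gain of 7.17 points was, in the same order, 7.86, 7.36, 7.03 and 7.27, then 8.04 from 1000 to 2000 bp and 6.90 matched. The outer gain of 6.68 points was 6.76 as a mean over members, 6.56 with 60 rows and 7.36 with 120. Shore minus core, 5.87 points, was 5.96 as a mean over members, 4.68 at 4 calls, 5.43 and 6.59 with 60 and 120 rows, 5.55 by the reference, 7.73 with the narrower zones and 5.34 matched. Upstream minus downstream shore was -0.964 at 4 calls, -0.369 with 120 rows and -0.381 matched.

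The upstream boundary shift was -90.4 bp at 20%, -145 at 50% and -117 without cytosines near another TSS, and the downstream one -82.9, -185 and, with 120 rows, -139. Requiring 20 points left 88 members higher and 24 lower in the core, and 463 higher and 5 lower in the shore. Requiring 10 points matched left 171, 16, 1701 and 4. With 5 points, 140 shores were lower. With 10 calls as the rule, 2.42% of shore windows gained.

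No paired analysis was possible because each genotype had 1 library. Core depth, a median of 183 WT and 151 TCKO calls per member, limits single-member differences.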
